A study of Homo sapiens with 42 samples.

Results

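FOS, FOSB, FOSL1, FOSL2, JUN, JUNB, JUND, EGR1, IER2 and DUSP1 were followed in HAP1 cells that carry or lack NEIL DNA glycosylases. These 10 genes were listed by name as members of the FOS and JUN families and as well known immediate-early genes. The list was chosen with earlier results of these data known. The shares of members called, set below against those of all genes, are therefore descriptive and do not test whether these genes stand out. All 10 were found among the 30182 entries of the expression table, and all 10 were among the 14331 genes tested. HAP1 is a near-haploid human line that came from the chronic myeloid leukaemia line KBM-7. RNA was sequenced from wild type cells (wt) and from 4 knockout genotypes: neil1, neil2 and neil3 lack the enzyme of that name, per the labels, and neil123 lacks every one. All genotypes were cultured in media alone or with buthionine sulfoximine (BSO) at 200 µM, which was begun after 4 h and lasted 48 h. BSO blocks glutamate-cysteine ligase, the enzyme that opens glutathione synthesis. The study title concerns glutathione and resistance to apoptotic and ferroptotic death in these cells. Sample names came in 2 label sets. The unlettered set held wt (lines 1.1, 1.3 and p1), neil1 (lines 12 and 13) and neil2 (lines 11 and 12), with 3 libraries per group. The lettered set, whose names end in A or B, held wt (lines 1.1 and 1.3), neil3 (lines 1 and 2) and neil123 (lines 1 and 2), with 4 libraries per group. Each knockout was therefore set against wt of its own label set. What the letters and sets stand for, and whether a line is a clone, is not given in the sources used here. With 2 lines per knockout, the libraries of a group do not stand for many independent lines. In the main fits the p-values rest on 1 spread between libraries per gene, pooled over all groups, which may be partly technical.

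FOS and JUN proteins pair through leucine zippers into the transcription factor AP-1, which binds short DNA sites near its target genes. JUN proteins can pair with each other, whereas FOS proteins need a JUN or another partner. FOS, FOSB, JUNB, EGR1, IER2 and DUSP1 are textbook immediate-early genes: growth factors, serum and stress switch them on within minutes through the kinases ERK, JNK and p38, acting on serum response factor with its ELK partners and on CREB at their promoters, and the transcripts decay quickly. DUSP1 is a phosphatase that takes phosphate off these kinases, so it closes a feedback loop.

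Promoter sequences were read from RefSeq on GRCh38.p14 for the genes that moved together in the results below, FOS, FOSB, EGR1 and DUSP1. Each line gives the 150 bases that end just before the annotated transcript start, 5′ to 3′ on the gene's own strand. Capitals mark TGACGT on either strand, which is the core of a CREB site, and the CArG box that serum response factor binds.
FOS, chr14:75278678-75278827, plus strand: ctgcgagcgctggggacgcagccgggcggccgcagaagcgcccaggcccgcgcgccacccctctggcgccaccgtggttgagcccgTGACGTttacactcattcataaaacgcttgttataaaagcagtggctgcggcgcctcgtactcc
FOSB, chr19:45467846-45467995, plus strand: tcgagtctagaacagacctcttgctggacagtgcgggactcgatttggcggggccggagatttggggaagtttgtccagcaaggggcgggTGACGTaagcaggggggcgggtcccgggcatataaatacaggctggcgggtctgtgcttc
EGR1, chr5:138465329-138465478, plus strand: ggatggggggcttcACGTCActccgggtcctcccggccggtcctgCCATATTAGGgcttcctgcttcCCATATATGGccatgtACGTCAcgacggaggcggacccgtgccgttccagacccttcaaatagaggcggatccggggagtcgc
DUSP1, chr5:172771196-172771345, minus strand: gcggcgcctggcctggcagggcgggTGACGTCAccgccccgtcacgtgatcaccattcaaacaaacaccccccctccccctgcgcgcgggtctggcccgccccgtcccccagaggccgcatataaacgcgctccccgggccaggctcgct

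A promoter was found for 9 of the 10 genes (all but FOSL1). TGACGT occurred in the 250 bases before the start in 6 of the 9 genes (FOS, FOSB, FOSL2, JUND, EGR1 and DUSP1), against 7.10% of the 35116 promoters in the table. In FOS it lay at bases -64 to -59 from the start and in FOSB at -60 to -55. The 8 bases TGACGTCA in DUSP1 hold the motif on both strands, at -125 to -120 and at -123 to -118. A CArG box was present in 1 of the 9, EGR1, which had 2 (-105 to -96 and -83 to -74), against 1.16% of promoters. The AP-1 site TGANTCA, searched on both strands, was in 0 of the 9 windows and in 6.57% of all. The box TATAAA, on the gene's strand alone, was in FOS, FOSB, JUNB and DUSP1, against 6.80% of all. A match is only a match of letters in this window. Bases farther upstream were not searched, so a gene without a match here may still hold the site there.

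The 42 libraries held 27.2 M to 30.9 M reads (30.2 M to 30.9 M in the unlettered set, 27.2 M to 29.02 M in the lettered set), and mitochondrial transcripts took 1.68% to 4.61% of them. Levels below are normalized reads, in which 1 read has a value of 0.941 to 1.04. Of the targeted genes in media, NEIL2 was at 300 to 328 in neil2 against 487 to 613 in its wt, and at 215 to 242 in neil123 against 363 to 425. NEIL3 was at 410 to 614 in neil3 against 590 to 671 in its wt, so that those ranges overlapped, and at 381 to 472 in neil123. NEIL1 RNA was at 284 to 513 in neil1 against 310 to 403 in wt and was not lower in neil123 (842 to 1072 against 774 to 975); a transcript can persist after a coding change, so its level does not test the label. Of 9 blood-lineage markers, 6 were in the table and 4 of them never reached 10 normalized reads. PTPRC (CD45) did not exceed 2.92, whereas CD34 ranged from 1.02 to 716. In media the 6 summed to 59.8 to 728 in neil1 and 29.01 to 179 in neil2, against 27.8 to 40.5 in unlettered wt.

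Per kilobase of exon, JUND was the most abundant of the 10 in wt media (926 normalized reads per kb in the unlettered set and 1069 in the lettered set), followed by FOSL1 (383 and 465), JUNB (342 and 424) and IER2 (206 and 194). FOS was the least abundant in unlettered wt, at 10.7 per kb, next to FOSB at 12.7 and FOSL2 at 22.5. In lettered wt FOS stood at 291 per kb, above IER2 and DUSP1 (205). These are levels over the exon union of GENCODE 29. Over all 42 libraries FOS had the widest range, with its highest library at 115 times its lowest, against 17.9 times for FOSB, 7.45 for EGR1, 3.67 for FOSL2, 3.46 for JUN and 1.57 for IER2.

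The FOS range came from the lettered set. In media, FOS was at 30.7 (line 1.1), 40.5 (line 1.3) and 33.1 (line p1) in unlettered wt. In lettered wt the same gene was at 1789 (1.1A), 1031 (1.1B), 629 (1.3A) and 314 (1.3B). The line names 1.1 and 1.3 stand in both sets, and no lettered library reached down to an unlettered one. The difference between the wt sets was 4.45 ± 0.51 (log2 change ± SE, limma, adjusted p = 2.5e-08), a 21.9-fold higher level in the lettered set. Since this was bulk RNA, more cells with the transcript and more transcript per cell cannot be told apart, here or in any result below.

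Of the 10 genes, 6 were higher in lettered than in unlettered wt in media, against 39.1% of all tested genes that differed between the sets: FOS, FOSB, FOSL1, JUN, EGR1 and DUSP1. EGR1, a zinc finger factor, was at 146 to 182 in the unlettered libraries and at 667, 370, 312 and 176 in the lettered ones (1.07 ± 0.27, adjusted p = 0.0019), with 1.3B inside the unlettered range. FOSB was at 57.4 to 77.7 against 593, 238, 87.0 and 72.9 (1.3 ± 0.38, adjusted p = 0.0066), so only line 1.1 stood well above. DUSP1 was at 276 to 293 against 549, 439, 350 and 319 (0.50 ± 0.12, adjusted p = 6.9e-04), and JUN at 313 to 328 against 824, 411, 489 and 395 (0.66 ± 0.21, adjusted p = 0.013); neither overlapped. Without line 1.1 of the lettered set only FOS of these 6 stayed past the threshold (3.65, adjusted p = 8.0e-06). FOS, FOSB, EGR1 and DUSP1 each ranked 1.1A, 1.1B, 1.3A, 1.3B from high to low.

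**Figure D1:**
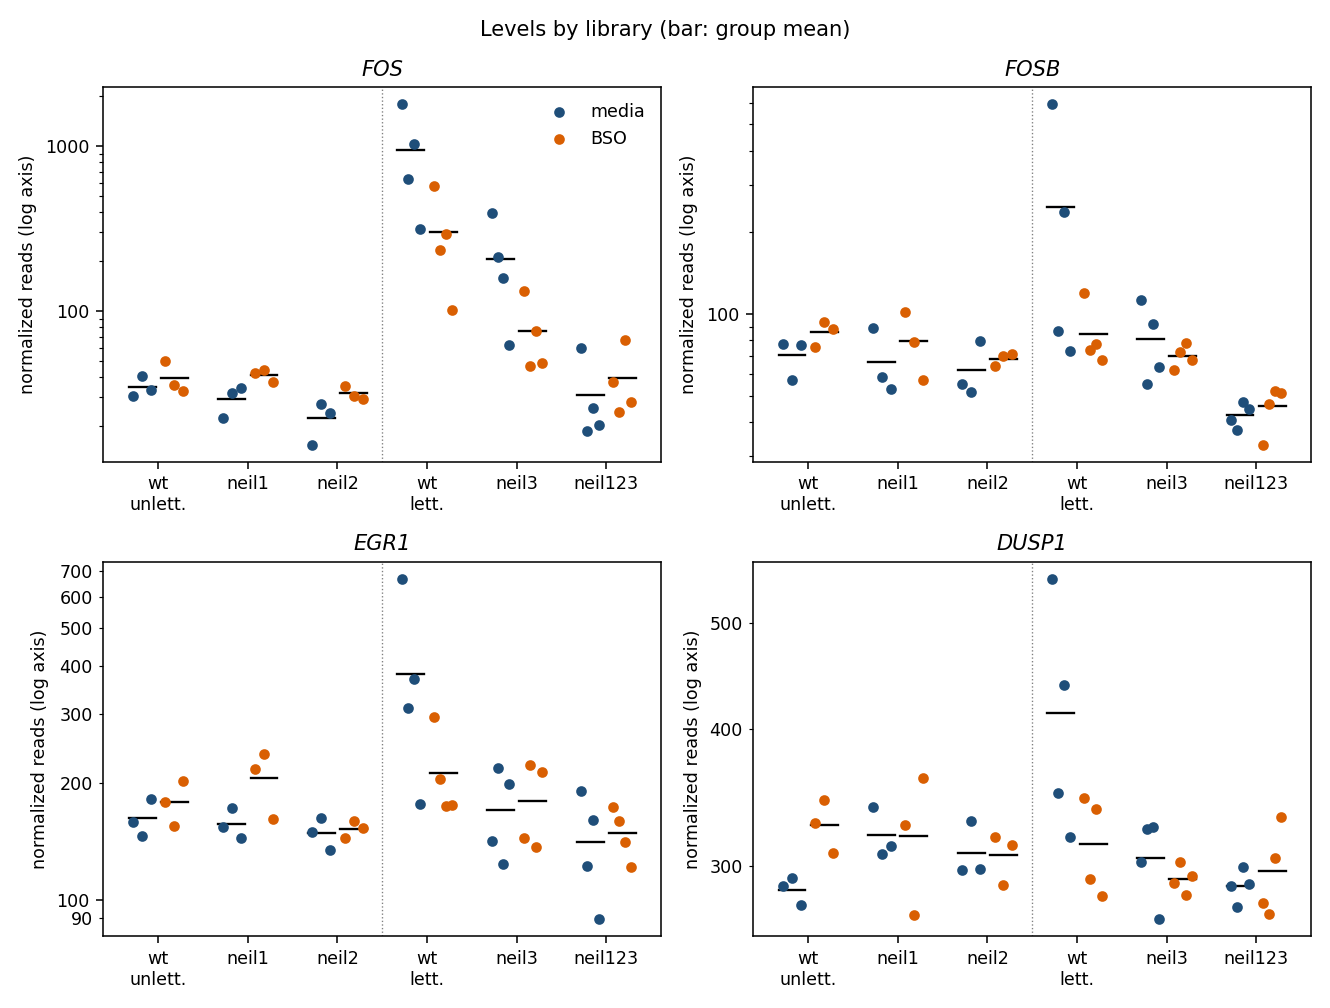
Normalized reads of FOS, FOSB, EGR1 and DUSP1 in each library (log axis; blue media, orange BSO), by genotype, with the unlettered label set left of the dotted line and the lettered set right of it; bars are group means. Lettered wt in media holds the highest library of each gene (1789 for FOS, 593 for FOSB, 667 for EGR1, 549 for DUSP1), and FOS in neil123 lies at 18.7 to 66.8, where the unlettered groups lie at 15.5 to 50.1.

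In neil123 kept in media, FOS, FOSB, EGR1 and DUSP1 fell and FOSL2 rose against lettered wt. That is 5 of the 10 genes, against 5.34% of all tested genes. FOS was at 59.8 (1A), 25.9 (1B), 18.7 (2A) and 20.3 (2B), so the highest knockout library lay far below the lowest wt library of its set (314). FOS fell by 4.76 ± 0.48 on the log2 scale (adjusted p = 1.4e-08), a 27.0-fold lower level. The adjusted p of this difference was 3.5e-07 or lower with any 1 of these libraries left out.

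FOSB, the FOS relative that shares its strong activation domain, was at 40.8, 47.6, 37.5 and 44.8 in neil123 (order 1A, 1B, 2A, 2B) against the 72.9 to 593 of lettered wt. It fell by 2.0 ± 0.35 on the log2 scale (adjusted p = 2.9e-04), and the ranges did not overlap. EGR1 was at 191, 160, 122 and 89.5 against 176 to 667, so library 1A reached into the wt range, and fell by 1.33 ± 0.25 (adjusted p = 7.8e-04). DUSP1 was at 288, 299, 275 and 289 against 319 to 549, without overlap, and fell by 0.49 ± 0.11 (adjusted p = 0.0031). These fell 4.01-fold, 2.51-fold and 1.41-fold. Without wt line 1.1, FOS was the only member called (-3.95, adjusted p = 1.3e-05).

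FOSL2 moved the other way in neil123. It encodes a FOS protein without the strong activation domain of FOS, and was at 358, 398, 314 and 297 against 220 (1.1A), 130 (1.1B), 253 (1.3A) and 190 (1.3B) in wt. The ranges did not overlap and FOSL2 was 0.81 ± 0.24 higher (adjusted p = 0.036), but the call was lost without wt 1.1B (adjusted p = 0.20) or 1.3B (0.084), or without neil123 1A (0.087), 2A (0.057) or 1B (0.11). FOSL1, JUN, JUNB, JUND and IER2 did not pass in neil123, with log2 differences between -0.29 (JUN) and 0.03 (JUND). JUND was at 1808 to 2246 in neil123 and at 1626 to 2260 in wt.

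With BSO, FOS was the only member past the threshold in neil123 against wt given BSO, against 8.09% of all genes. FOS was at 37.1 (1A), 66.8 (1B), 24.3 (2A) and 28.1 (2B) against 573 (1.1A), 292 (1.1B), 234 (1.3A) and 102 (1.3B) in wt, again without overlap. It fell by 2.76 ± 0.48 (adjusted p = 2.2e-04), 6.79-fold. FOSB (33.0 to 52.2 against 68.0 to 120) and EGR1 (122 to 173 against 175 to 295) lay below wt in every library, and FOSL2 (361 to 478 against 219 to 307) above it, but none passed (adjusted p = 0.14, 0.27 and 0.086). With the letter as a block, FOSB (adjusted p = 0.013) and FOSL2 (adjusted p = 0.010) passed as well, and EGR1 did not (0.087). The share of all genes called with that block is not given here.

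In neil3 kept in media FOS was the only member called, against 0.44% of all genes. It was at 393 (1A), 158 (1B), 214 (2A) and 62.2 (2B), so that library 1A lay above the lowest wt library (314) and the ranges overlapped, and it fell by 2.19 ± 0.48 (adjusted p = 0.019), 4.56-fold. This rests on few libraries: the adjusted p was 0.19 without wt library 1.1A, 0.097 without 1.1B, 0.064 without neil3 1B, 0.15 without neil3 2B, and 0.058 with the letter as a block. EGR1 (124 to 219), DUSP1 (268 to 326) and FOSB (55.2 to 113) had log2 differences of -1.03 ± 0.25, -0.41 ± 0.11 and -1.14 ± 0.35 that missed the threshold (adjusted p = 0.055, 0.10 and 0.30). With edgeR on the recovered reads EGR1 and FOSB passed along with FOS, but the share of all genes that edgeR called is not given here. JUN lay below wt in every library (330 to 390 against 395 to 824; -0.50 ± 0.20, adjusted p = 0.61). With BSO, 0 members were called in neil3 against 0.405% of all genes, and FOS (132, 75.5, 46.6 and 48.6 in the order 1A, 1B, 2A, 2B) had a difference of -1.85 ± 0.48 (adjusted p = 0.086).

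In neil1 and neil2, 0 of the 10 genes were called in either treatment, while the share of all genes called was 0.3% for neil1 in media, 0.202% for neil1 with BSO, 11% for neil2 in media and 15.8% for neil2 with BSO. FOS in media was at 22.4 (line 12), 31.8 and 34.2 (line 13) in neil1 and at 15.5 and 27.3 (line 11) and 24.2 (line 12) in neil2, against 30.7 to 40.5 in unlettered wt. The neil1 libraries overlapped wt (-0.24 ± 0.55, adjusted p = 0.89), and those of neil2 lay below it (-0.64 ± 0.55, adjusted p = 0.48). The SD of FOS was 8.44% to 27.5% of the mean in unlettered groups and 49.2% to 67.7% in lettered ones. Because 1 spread is pooled over all groups, the FOS errors in neil1 and neil2 are partly those of the lettered set. The same pooling brings the tighter unlettered groups into the lettered comparisons above, so their FOS errors and p-values may be too small. That holds for FOSB as well. In media its SD was 97.7% of the mean in lettered wt and 10.4% in neil123. FOSL2 had the largest positive differences, 0.52 ± 0.28 in media in both (adjusted p = 0.44 in neil1 and 0.23 in neil2) and with BSO 0.65 ± 0.28 in neil1 (adjusted p = 0.43) and 0.53 ± 0.28 in neil2 (adjusted p = 0.19). Every neil1 library lay above wt in both treatments (176 to 305 against 158 to 162 in media). In neil2 FOSL2 split by line: it was at 312 and 297 in line 11 and at 133 in line 12, with wt at 158 to 162 between them. JUN did likewise in part, with 449 and 580 in line 11 and 336 in line 12. Without line 12, which leaves only libraries of line 11, FOSL2 and JUN were both called in neil2, in media and with BSO. Those calls describe line 11 and not the genotype. The share of all genes called without line 12 is not given here.

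**Figure D2:**
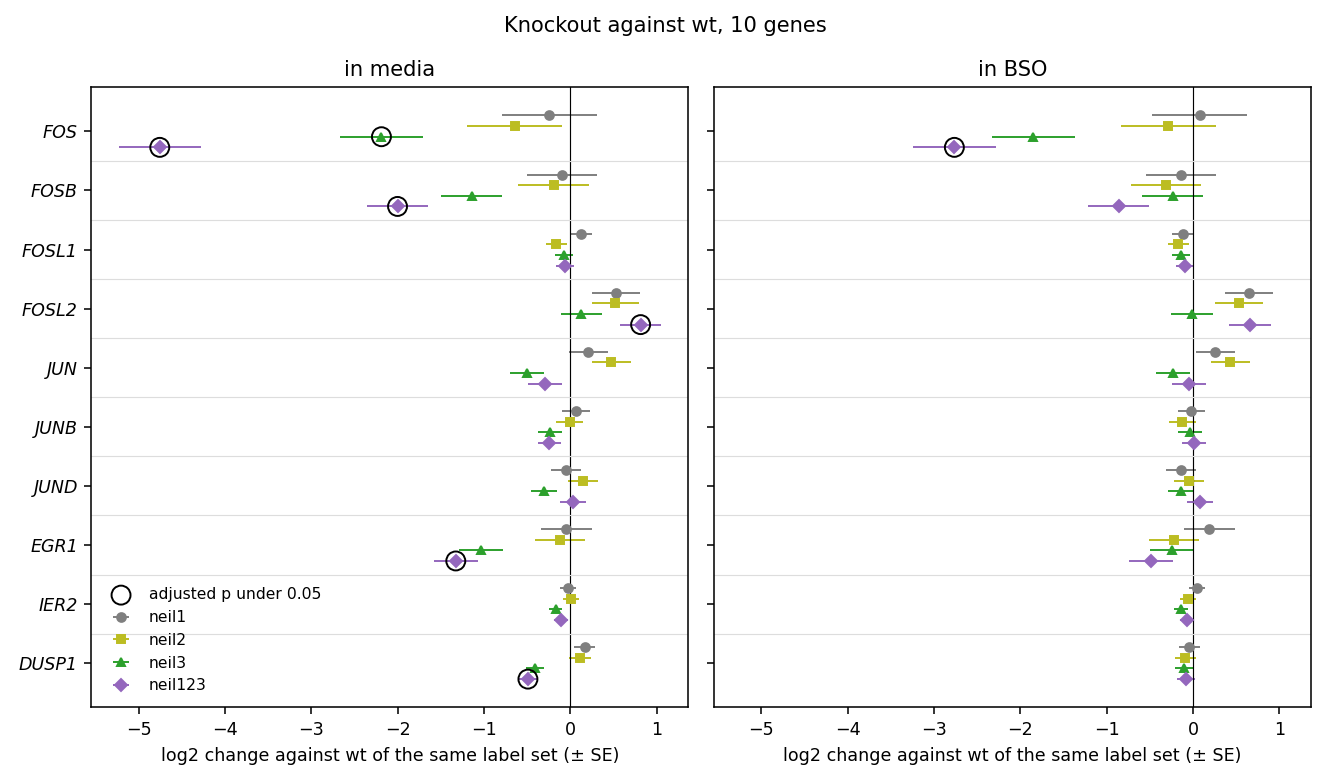
Log2 change (± SE) of the 10 genes in each knockout against wt of the same label set, in media (left) and with BSO (right); circles mark an adjusted p under 0.05. In media neil123 stands out by FOS (-4.76), FOSB (-2.0) and EGR1 (-1.33), and the values for JUND and IER2 lie between -0.30 and 0.15.

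Which wt libraries served as the reference decided most of these calls. Set against the unlettered wt, an alternative chosen after seeing the data, FOS in neil123 differed by -0.30 ± 0.51 in media (adjusted p = 0.66), EGR1 by -0.25 (adjusted p = 0.47), DUSP1 by 0.01 (adjusted p = 0.95) and FOSB by -0.71 (adjusted p = 0.13), whereas FOSL2 was still higher (1.07, adjusted p = 0.0010). FOS in neil3 was then higher than wt by 2.27 ± 0.51 (adjusted p = 5.7e-04), the reverse of its fall. Set against lettered wt, FOS fell by 4.70 in neil1 and by 5.10 in neil2. In levels, 3 of the 4 FOS libraries of neil123 in media (18.7 to 25.9) lay within the range of unlettered wt, neil1 and neil2 (15.5 to 40.5), and library 1A (59.8) lay above it, next to the lowest neil3 library (62.2). The other neil3 libraries reached 393, and lettered wt lay above 3 of the 4.

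Within the lettered set FOS also followed the line, and in wt and in neil3 in media it followed the letter. Library A exceeded library B of the same line in all 4 wt comparisons (1.74-fold and 2.004-fold in media, 1.96-fold and 2.29-fold with BSO, for lines 1.1 and 1.3), and in neil3 in media (2.49-fold and 3.44-fold). In neil3 with BSO the ratio of A to B was 1.75 in line 1 and 0.96 in line 2. In neil123 it was 2.31 in media and 0.55 with BSO in line 1, and 0.92 and 0.86 in line 2. Line 1.1 exceeded line 1.3 in wt, and line 1 exceeded line 2 in neil3, in each matching library. EGR1 was higher in A than in B in 12 of 12 comparisons of a line and treatment, FOSL1 and FOSL2 in 11 of 12, and FOS in 8 of 12. JUNB went the other way, higher in B in all 12 (in wt media 1005 in 1.1B against 677 in 1.1A, and 798 in 1.3B against 608 in 1.3A). The media and BSO libraries of a name form pairs, so these 12 are not independent.

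**Figure D3:**
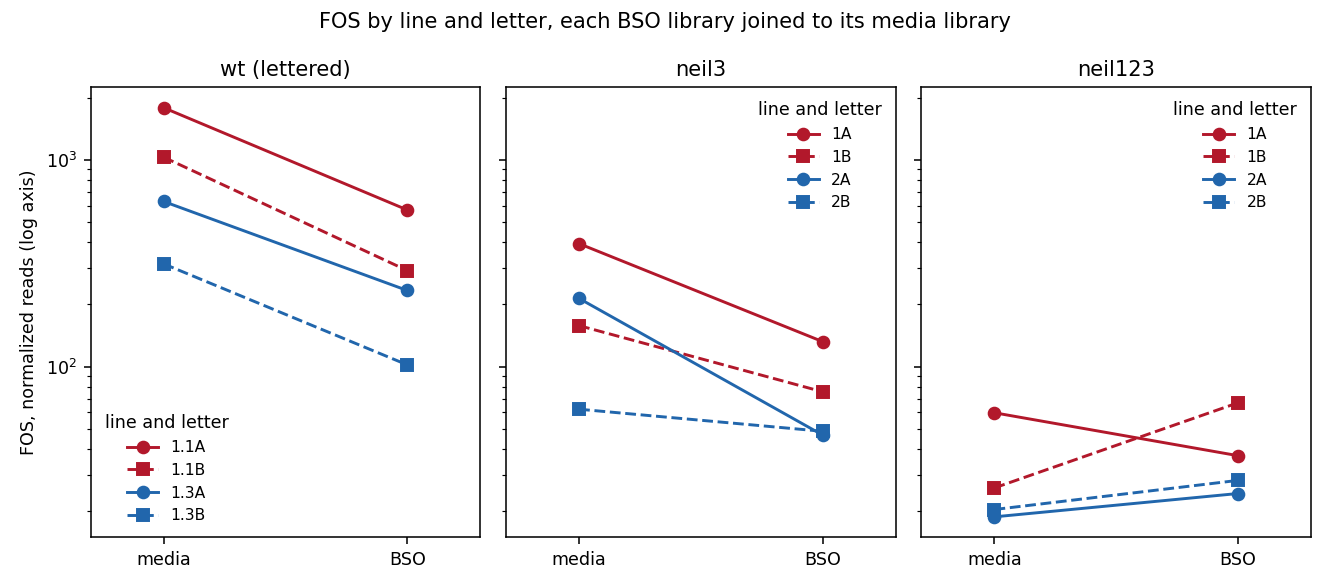
FOS in the lettered set (normalized reads, log axis), each library with BSO joined to the media library of the same name; red is line 1.1 of wt or line 1 of a knockout, blue line 1.3 or line 2, circles A and squares B. All 4 wt lines run down from media (314 to 1789) to BSO (102 to 573), all 4 in neil3 run down too, and in neil123 1 of 4 does.

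BSO was compared with media within the 21 pairs of libraries that share a name. FOSL2 rose in all 5 genotypes, by small amounts, and JUN and JUNB fell in wt, neil1 and neil2. FOSL2 was higher with BSO in 21 of 21 pairs, by 0.11 to 0.74 on the log2 scale. The mean change was 0.42 ± 0.06 in wt (7 pairs, adjusted p = 3.2e-06), 0.53 ± 0.09 in neil1 (adjusted p = 2.1e-04), 0.41 ± 0.09 in neil2 (adjusted p = 0.0042), 0.29 ± 0.08 in neil3 (adjusted p = 0.0086) and 0.27 ± 0.08 in neil123 (adjusted p = 0.023). In wt that is a 1.33-fold rise, from 162, 162 and 158 in media to 206, 199 and 235 in the unlettered lines 1.1, 1.3 and p1. Leaving out 1 pair took the call away in neil2 (highest adjusted p = 0.053), neil3 (0.11) and neil123 (0.17).

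JUN, the main partner of FOS in AP-1, was lower with BSO in 21 of 21 pairs, by 0.04 to 0.82 on the log2 scale. It fell by 0.39 ± 0.06 in wt (adjusted p = 3.2e-06), by 0.29 ± 0.09 in neil1 (adjusted p = 0.029) and by 0.38 ± 0.09 in neil2 (adjusted p = 0.0052), and had changes of -0.16 ± 0.08 in neil3 and -0.18 ± 0.08 in neil123 that did not pass (both adjusted p = 0.12). The steepest pair was wt 1.1A, from 824 to 466. JUNB, a JUN relative that activates more weakly, was lower in 18 of 21 pairs. It fell by 0.23 ± 0.05 in wt (adjusted p = 4.9e-04), by 0.29 ± 0.08 in neil1 (adjusted p = 0.012) and by 0.32 ± 0.08 in neil2 (adjusted p = 0.0070). In neil3 and neil123 its changes were -0.06 ± 0.07 and -0.0036 ± 0.07. In neil1 the JUN call was lost without any of the 3 pairs (adjusted p up to 0.15) and the JUNB call without the pair of line 12 or 1 of the pairs of line 13 (up to 0.19), and in neil2 both were lost without pair 12 (0.090 and 0.21).

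FOS fell with BSO in lettered wt and in neil3, the groups where it was high in media. The media values enter both the level and the change, so these are not separate results. The same lettered wt pairs also enter the comparisons of BSO changes below. In wt it fell by 0.86 ± 0.18 over the 7 pairs (adjusted p = 2.9e-04), but the sets parted: the 4 lettered pairs changed by -1.64 (1.1A), -1.82 (1.1B), -1.43 (1.3A) and -1.61 (1.3B), and the 3 unlettered ones by 0.69 (1.1), -0.18 (1.3) and -0.02 (p1). In neil3 FOS fell by 1.29 ± 0.23 (adjusted p = 1.1e-04), with all 4 pairs lower by 0.35 to 2.17. In neil123 it was higher in 3 of 4 pairs and in neil1 and neil2 in all 3, with mean changes of 0.37 ± 0.23, 0.48 ± 0.27 and 0.52 ± 0.27 that did not pass (adjusted p = 0.35, 0.28 and 0.25). FOS held 15.5 to 59.8 normalized reads in media in those groups, so counting error there is large.

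EGR1 fell by 0.35 ± 0.09 in wt (adjusted p = 0.0039) and FOSB by 0.48 ± 0.17 (adjusted p = 0.027). EGR1 went from 667 to 295 in pair 1.1A and from 370 to 175 in 1.1B, from 312 to 204 in 1.3A, and did not move in 1.3B (176 and 176), while the 3 unlettered pairs were higher by 0.09 to 0.17. FOSB went from 593 to 120 in 1.1A and from 238 to 77.9 in 1.1B. Both calls were lost without the pair 1.1A (adjusted p = 0.091 for EGR1 and 0.40 for FOSB) or 1.1B (0.067 and 0.21), and without both pairs of that line FOSB had a change of 0.10. FOSL1, a FOS protein that lacks the strong activation domain, fell in neil3 (by 0.23 ± 0.06, adjusted p = 0.0074) and in neil123 (by 0.19 ± 0.06, adjusted p = 0.047), calls that were lost without neil3 1A or 2A (highest adjusted p = 0.10) and without neil123 1A, 2A or 1B (highest 0.24). DUSP1, JUND and IER2 were not called in any genotype; their changes lay between -0.14 and 0.04.

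The share of all tested genes called with BSO was 35.4% in wt, 11% in neil1, 8.46% in neil2, 24% in neil3 and 11.7% in neil123. The members' counts were 6 of 10 in wt (5 fell), 3 each in neil1, neil2 and neil3 (2 fell in each) and 2 in neil123 (1 fell). The median change of the 10 was -0.18 in wt, against -0.0023 for all genes, and between -0.06 and 0.02 in the knockouts.

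**Figure D4:**
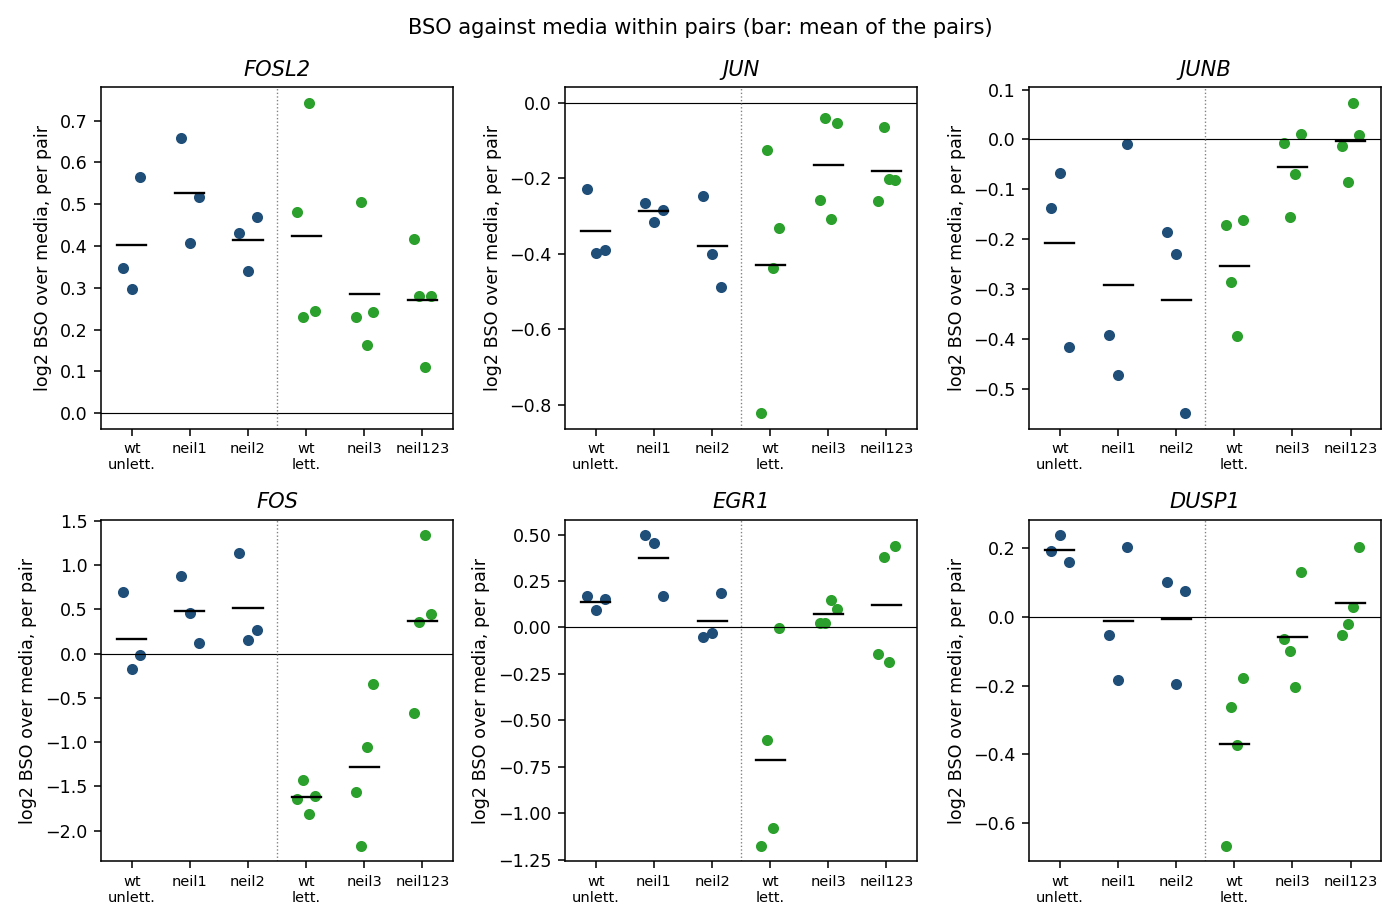
Log2 ratio of BSO over media in each pair for FOSL2, JUN, JUNB, FOS, EGR1 and DUSP1, by genotype, the unlettered label set in blue and the lettered set in green; bars are means over pairs and each panel has its own axis. FOSL2 is above 0 and JUN below 0 in 21 of 21 pairs, whereas for FOS, EGR1 and DUSP1 the lettered wt pairs lie apart from the unlettered ones.

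The BSO changes of the knockouts were then compared with those of wt in their own label set. FOS in neil123 was the only member that differed (1.99 ± 0.33, adjusted p = 0.0085), among 5 genes in all (0.0349%): FOS went down in the 4 wt pairs and not in 3 of the 4 neil123 pairs. That p rose to 0.055 without the pair wt 1.1A, 0.058 without neil123 1B, 0.054 without neil123 2B and 0.18 without wt line 1.1. EGR1 differed by 0.84 ± 0.18 in neil123 (adjusted p = 0.079) and by 0.79 ± 0.18 in neil3. In neil3 0 genes of the whole table passed (0%; 466 had an unadjusted p under 0.05), and in neil1 and neil2 0 members passed, against 2.21% and 10.4% of all genes.

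The BSO change also differed between the wt sets themselves, a comparison added after seeing the data. FOS (-1.79 ± 0.35, adjusted p = 0.0012), FOSB (-1.34 ± 0.35, adjusted p = 0.0095), EGR1 (-0.85 ± 0.19, adjusted p = 0.0032), DUSP1 (-0.56 ± 0.12, adjusted p = 0.0017) and JUND (-0.24 ± 0.08, adjusted p = 0.035) had the lower change in the lettered set, which is 5 of 10 members against 14.7% of all genes. Without wt line 1.1 of the lettered set, FOS (-1.69, adjusted p = 0.021) and DUSP1 (-0.41, adjusted p = 0.045) were still called, and FOSB (-0.45, adjusted p = 0.35), EGR1 (-0.44, adjusted p = 0.13) and JUND (-0.09, adjusted p = 0.50) were not. DUSP1 was higher with BSO in all 3 unlettered pairs (0.16 to 0.24) and lower in all 4 lettered pairs (-0.67 to -0.18). The changes of FOSL2, JUN and JUNB did not differ beyond their error between the sets (0.02 ± 0.12, -0.09 ± 0.11 and -0.05 ± 0.10).

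Among other genes of the same circuit, 24 of 26 further immediate-early genes were tested. In neil123 in media, where 5.34% of all genes were called, 1 rose and 2 fell. The neuronal immediate-early gene ARC fell by 0.86 ± 0.14 (46.8 to 53.9 against 91.1 to 99.2, adjusted p = 1.0e-04) and the nuclear receptor NR4A2 by 1.29 ± 0.39 (adjusted p = 0.048). BTG2, an antiproliferative gene, rose by 0.31 ± 0.09 (adjusted p = 0.040). The list's median was -0.07, against -0.0017 for all genes. In neil2 in media 1 rose and 2 fell, a share near the 11% of all genes called there. ARC (-0.54 ± 0.16, adjusted p = 0.027) was among those that fell. In neil1 and neil3 0 passed in either treatment, where 0.202% to 0.44% of all genes were called. Of 16 genes of ERK feedback (SPRY, SPRED, DUSP and ETV genes among them), only EPHA4 passed in neil123 in media (a rise of 0.24 ± 0.07, adjusted p = 0.047). That share is near the 5.34% of all genes. With BSO, 3 of the 16 fell in neil123, against 8.09% of all genes called: DUSP4 (-1.07 ± 0.33, adjusted p = 0.039), ETV1 (-1.07 ± 0.30, adjusted p = 0.024) and SPRED2 (-0.39 ± 0.12, adjusted p = 0.037).

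Of 20 regulators upstream of these promoters (kinases, serum response factor, ELK and CREB genes), 0 passed in neil123, neil3 or neil1, in media or with BSO. Of all genes, 5.34% (media) and 8.09% (BSO) were called in neil123, and 0.202% to 0.44% in neil3 and neil1. In neil2, 2 fell in media, MRTFB (-0.39 ± 0.10, adjusted p = 0.014) and ELK1 (-0.18 ± 0.06, adjusted p = 0.048), and 1 rose and 4 fell with BSO, where 11% and 15.8% of all genes were called. Between the wt sets in media 4 rose and 5 fell, a share near the 39.1% of all genes, with a list median of -0.05. These counts show no shift particular to the list. Only the 4 largest called changes are named. The kinase gene MAPK7 (0.48 ± 0.06, adjusted p = 2.2e-07), SRF (0.37 ± 0.06, adjusted p = 6.9e-06) and MRTFA, which encodes a partner of serum response factor (0.32 ± 0.07, adjusted p = 3.5e-04), were higher in the lettered set. RPS6KA3 (-0.31 ± 0.05, adjusted p = 2.1e-05) was lower. Of 8 tested AP-1 target genes, 1 fell in neil123 in media, against 5.34% of all genes called. This was the hyaluronan receptor CD44, at 28.9 ± 13.8 against 130 ± 50.5 (mean ± SD, n = 4 each), a log2 change of -2.15 ± 0.47 (adjusted p = 0.0032).

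The effect of BSO was also read in genes of the leucine zipper partners of FOS and JUN proteins. Of 14 tested, 8 rose and 2 fell in wt (35.4% of all genes were called), 4 and 2 in neil1 (11%), 4 and 4 in neil2 (8.46%), 9 and 2 in neil3 (24%), and 7 and 1 in neil123 (11.7%). MAFG, a small MAF protein that pairs with NRF2, rose by 0.47 ± 0.04 in wt (adjusted p = 2.3e-11) and was higher in 21 of 21 pairs, and JDP2, a repressor that pairs with JUN, rose by 0.61 ± 0.04 (adjusted p = 3.7e-12). MAF rose by 0.42 ± 0.05 (adjusted p = 1.9e-07) and BACH2 by 0.57 ± 0.16 (adjusted p = 0.0066). ATF3, a stress-induced immediate-early gene that also pairs with JUN, was higher in 21 of 21 pairs and rose by 0.60 ± 0.06 in wt (adjusted p = 3.3e-09). It comes from the list of further immediate-early genes. Of the 24 tested there, 5 rose and 6 fell with BSO in wt, where 35.4% of all genes were called. The median change of that list was -0.0026. Of the 8 tested AP-1 targets 2 rose and 2 fell with BSO in wt, where 35.4% of all genes were called. HMOX1, the heme oxygenase gene that NRF2 also drives, rose by 2.26 ± 0.06 in wt (adjusted p = 2.4e-22). In the unlettered libraries it went from 517 ± 56.9 to 2367 ± 301 (n = 3). PLAU rose by 0.37 ± 0.10 (adjusted p = 0.0051). CCND1 (-0.46 ± 0.10, adjusted p = 7.0e-04) and PLAUR (-0.17 ± 0.06, adjusted p = 0.029) fell.

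Markers of other cell types were set beside these changes. Of the epithelial markers 3 were tested, and EPCAM fell in neil123 in media (-2.12 ± 0.47, adjusted p = 0.0037), while the summed level of the 4 in the table was 1895 to 3665 in neil123 and 1980 to 3791 in wt. That sum was mostly KRT8 and KRT18 (means of 1116 and 1554 in neil123). CDH1, which defines epithelium, did not exceed 7.59 in any library. The summed stromal markers were at 1164 to 1293 in neil123 and at 828 to 1013 in lettered wt, with 0 of 2 tested called. This sum was mostly COL1A1 (mean 1205 in neil123 and 889 in wt), while PDGFRB went the other way (11.8 against 18.8). The blood markers summed to 5.09 to 51.8 and 20.6 to 42.5. Their part in the changes of the FOS and JUN genes was not tested.

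Across all 42 libraries, the genes whose log2 levels followed FOS most closely were TRPV4 (Pearson r = 0.72), ARC (0.70) and ANKLE1 (0.69), out of 12238 genes with a mean of 50 or more. For EGR1 they were FOSB (0.74), FOS (0.69) and DUSP1 (0.65), all members. For JUN they were NUAK2 (0.73), DUSP8 (0.72) and TTLL4 (0.71). FOSB and DUSP1 correlated at 0.79, FOS and IER2 at -0.22, and FOSL2 with FOS at -0.28. The libraries share lines, label sets and pairs, so these values are a description over groups that differ in level.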

How the data were processed

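The authors deposited 1 table of normalized signal: gene read counts divided by a size factor per library. Per the submitters' processing notes, Trim Galore, HISAT2, SAMtools, featureCounts and DESeq2 were used with GRCh38. For their versions and the strand setting: not given in the sources used here. All values (100%, within 1e-06) were whole reads times 1 factor per library. Entries without a gene name took 0.868% to 1.25% of reads and were left out, and of 20515 named genes the 14331 whose mean reached 10 were tested. Limma 3.58.1 (trend, R 4.3.3) was fitted to log2(value + 1), which understates changes of low genes, over 42 libraries in 12 groups, each knockout against wt of its own label set, and over the 21 BSO minus media pair differences. P-values were Benjamini-Hochberg adjusted over all tested genes, with 0.05 as the threshold. Pairs share a library name. Within groups, the deviations of paired libraries correlated at 0.193 to 0.849, and each library correlated best with its own pair in 21 of 21. The fits were also run on simulated data that held no line, letter or label-set effect, so that run does not test them where such effects are present. Named genes were all members, up to 4 called genes of the largest change per list and comparison, and the 3 closest correlates of FOS, EGR1 and JUN. Members and lists were chosen with earlier results of these data known. Alternatives included edgeR 4.0.16 on the recovered reads. The other wt set, left-out wt lines, single letters and the comparison of BSO changes between wt sets were added after seeing the data.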

Additional observations from a re-analysis of the deposited data

Results flagged for a closer look

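In groups of 4, IER2 had a library apart from the other 3 in neil123, at 533 in media (the lowest, with a gap of 0.889 of the group's range) and at 594 with BSO (the highest, 0.833). These were 2 of 60 groups tested, and chance alone flags some of them.

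The BSO change of FOS differed between neil123 and wt by 1.99 on the log2 scale (limma, adjusted p = 0.0085). Between lettered and unlettered wt, the BSO change differed by -1.79 for FOS, -1.34 for FOSB, -0.85 for EGR1, -0.56 for DUSP1 and -0.24 for JUND, all with an adjusted p under the threshold. EGR1 was higher with BSO in every neil3 pair and lower in every lettered wt pair, though by under 1 read in 1.3B (difference 0.79, adjusted p = 0.999). JUND was lower with BSO in every neil2 pair and higher in every unlettered wt pair, with log2 changes as small as -0.0022 and 0.0075 in 1 pair of each (difference -0.19, adjusted p = 0.14). For these last genes the test of the difference did not pass.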

How the results depend on the processing

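Of 36 member changes called, FOS between the wt sets was called in every alternative. Of 693 alternative values 538 kept direction and call, 149 kept direction without the call and 6 reversed. Causes were not tested. Reversed values were those of FOS in neil3 (2.27) and DUSP1 in neil123 (0.012) in media against the other wt set, of FOS (0.17), FOSB (0.28) and EGR1 (0.14) with BSO in unlettered wt pairs alone, and of FOSB with BSO without lettered wt line 1.1 (0.10). Counts of members called follow, the main count first. The share of all genes called under each alternative is not given here, so these counts do not show changes particular to the members. Between the 2 wt sets in media, 39.1% of all tested genes differed. Against the other wt set they went from 0 to 4 (neil1), 0 to 5 (neil2), 1 to 2 (neil3) and 5 to 1 (neil123) in media, and with BSO from 0 to 1, 0 to 2, 0 to 1 and 1 to 2. In neil3 in media, 1 became 0 with a label-set term, with only that treatment, with only the 2 groups, with 1 mean per line, without wt line 1.1 and with A or B names alone, 2 with equal totals, 3 with edgeR and 4 without wt line 1.3. In neil123 in media, 5 became 2 with 1 mean per line, without line 2 and with B names alone, and 1 without wt line 1.1. In neil2, 0 became 2 without line 12 in both treatments. With BSO, neil3 went from 0 to 1 with a label-set term, without line 1, with edgeR and without wt line 1.3, and neil123 from 1 to 2 with a label-set term, with only that treatment and without wt line 1.3, and to 3 with only the 2 groups. Between wt sets, 6 became 1 without line 1.1.

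With the letter as a replicate block, the count in neil3 in media went from 1 to 0 and in neil123 with BSO from 1 to 3. Without the replicate block of pairs, the BSO counts of 6 (wt), 3 (neil1), 3 (neil2), 3 (neil3) and 2 (neil123) all became 0, as did the 1 difference in neil123 and the 5 between wt sets. BSO calls in wt went from 6 to 3 with unlettered pairs or without line 1.1. In neil1 3 became 1 without line 12 or 13, in neil2 1 without line 11 and 0 without line 12, and in neil3 1 without line 2 and 0 with B names. In neil123 2 became 0 without line 1, without line 2 or with B names, and 1 with no filter or A names. Differences went from 0 to 2 in neil3 without wt line 1.3, from 1 to 2 in neil123 without line 1 or wt line 1.3 and to 0 without line 2 or wt line 1.1, and from 5 to 2 between wt sets without line 1.1 and to 3 with B names. Leaving out 1 library gave 0 in neil1 in both treatments, 0 to 1 (neil2), 0 to 4 (neil3), 4 to 5 (neil123) and 3 to 6 (wt sets) in media, and 0 to 2 (neil2), 0 to 1 (neil3) and 1 (neil123) with BSO. Leaving out 1 pair gave 4 to 7 (wt), 1 to 2 (neil1), 0 to 3 (neil2), 1 to 3 (neil3) and 0 to 1 (neil123) for BSO, and 0 to 1 (neil1), 0 (neil2), 0 to 1 (neil3), 0 to 2 (neil123) and 3 to 6 (wt sets) for differences. At 15.5 to 66.8 reads in most groups without high FOS, counting error limits its small changes.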
